A study of Homo sapiens with 2 samples.

Results

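The genes described are the clustered histone genes of the WaGa cell line, meaning every gene whose symbol in the deposited table starts with HIST1H, HIST2H, HIST3H or HIST4H. Of 71 such genes among 32742, 50 had at least 20 unique molecular identifiers (UMIs, each standing for 1 captured transcript) over both libraries and are the members. They comprise 4 genes of linker histone H1 and 14 genes of H2A, 15 of H2B, 9 of H3 and 8 of H4. Of the other genes, 10 had 1 to 19 UMIs and 11 were at 0. The members nearest the minimum were HIST1H4B with 25 UMIs and HIST2H3D with 36, and just outside it lay HIST2H4A and HIST1H4K with 18 each and HIST1H2AA with 6.

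WaGa is an established Merkel cell carcinoma line, grown from a virus-positive neuroendocrine skin cancer, and domatinostat is an inhibitor of class I histone deacetylases. The study profiled 1 library of domatinostat-treated WaGa cells and 1 library of WaGa cells that had no treatment, with 10x Genomics 3′ single-cell chemistry, which primes on A-rich RNA. The labels give neither dose nor time, nor whether untreated cells received the DMSO in which the drug was dissolved. Both groups are the same line in the same medium, and each ratio below is treated over untreated.

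Cells in S phase make most of their histone protein from these clustered genes, which are grouped on a few chromosome regions and are switched on with DNA replication. Their messages usually end in a stem-loop bound by SLBP instead of a poly(A) tail, and they are degraded when replication stops. Several clustered genes, such as HIST1H2BK, HIST1H2BD, HIST1H2BJ, HIST2H2BE, HIST1H2AC and HIST1H1C, are known to give polyadenylated transcripts as well. H2A, H2B, H3 and H4 build the nucleosome core, and H1 binds the DNA between cores.

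Because the libraries capture A-rich RNA, the A-richest 20 bases within the last 200 of the annotated transcript are shown for genes on which the results turn (GENCODE 29, GRCh38, 5′ to 3′, A in capitals).
HIST1H4C: AAAAAAcAAAAAcAAAAAAA
HIST2H2AC: AcAAAgccAAAAgcAAAtAA
HIST1H1C: ctAAgAAAAcAccgAAgAAA
HIST1H2BK: AccAAgtAcAccAgcgctAA
The HIST1H4C window is the very end of its 435-base transcript and holds 18 A. Only 2.33% of annotated genes reach 18 in their last 200 bases, and among the members HIST1H2BG reaches 20. The annotated transcripts of HIST2H2AC, HIST1H1C and HIST1H2BK are 390, 642 and 381 bases long. A stem-loop sequence was found in none of them, nor in that of HIST1H4C. They may therefore stop short of the real ends, which the windows would then not show. The windows of HIST2H2AC, HIST1H1C and HIST1H2BK hold 13, 12 and 8 A. How these letters bear on capture was not tested, so levels of different members are not read as amounts of transcript, and each member is compared with itself across cells and libraries. Tags were counted once per molecule and were not divided by length.

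The 250 bases before the start are shown for 3 members that behaved differently across cells: HIST1H1B, HIST1H2BK and HIST2H2BE. They come from RefSeq on GRCh38.p14 and run 5′ to 3′ on the minus strand, and they lie at chr6:27867589-27867838 (HIST1H1B), chr6:27146859-27147108 (HIST1H2BK) and chr1:149886683-149886932 (HIST2H2BE). Capitals mark letters searched on both strands: CCAAT, the octamer ATTTGCAT, TATAAA and, for H1 genes, AAACACA. Neighbouring or overlapping matches run together in capitals.
HIST1H1B: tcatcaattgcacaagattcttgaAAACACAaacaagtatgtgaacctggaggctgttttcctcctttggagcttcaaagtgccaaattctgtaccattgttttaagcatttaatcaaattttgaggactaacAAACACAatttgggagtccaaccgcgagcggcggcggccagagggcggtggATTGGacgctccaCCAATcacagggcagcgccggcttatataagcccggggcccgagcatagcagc
HIST1H2BK: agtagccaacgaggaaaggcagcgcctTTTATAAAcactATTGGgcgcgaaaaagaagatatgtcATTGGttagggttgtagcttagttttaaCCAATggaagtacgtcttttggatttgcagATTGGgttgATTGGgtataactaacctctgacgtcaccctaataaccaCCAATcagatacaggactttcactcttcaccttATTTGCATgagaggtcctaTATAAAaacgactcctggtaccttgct
HIST2H2BE: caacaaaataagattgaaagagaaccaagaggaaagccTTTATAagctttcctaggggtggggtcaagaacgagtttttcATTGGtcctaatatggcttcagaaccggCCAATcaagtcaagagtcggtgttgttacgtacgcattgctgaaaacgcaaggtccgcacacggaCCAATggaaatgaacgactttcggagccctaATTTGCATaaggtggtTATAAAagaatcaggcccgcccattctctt
A promoter was matched for 42 members. CCAAT was found in 36 of them, which were all 36 promoters of H1, H2A, H2B and H3 genes and 0 of 6 of H4 genes, against 33.0% of 27305 promoters. The octamer was found in 21, of which 11 were among 15 H2B and 9 among 12 H2A promoters, against 1.66% of all promoters. TATAAA was found in 30, against 11.1% of all promoters. AAACACA was found in all 4 H1 promoters and no other member, against 4.95% of all promoters. These matches describe letters and not bound sites.

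The treated library held 6679 cells with a median of 8578 UMIs, and the untreated library 4137 cells with a median of 11125 UMIs, for 60160108 and 45562976 UMIs in all. For sorting, cells were thinned to 4351 UMIs each, which kept 6012 treated and 3892 untreated cells. The libraries shared 48 cell barcodes. The 10 Merkel cell carcinoma markers were all detected and summed to 2633 counts per 1000000 (CPM) in the treated library and 2783 CPM in the untreated library. The 5 keratinocyte genes summed to 359 CPM in treated and 403 CPM in untreated cells, and each of the other 6 marker lists to at most 17.9 CPM in treated and 29.3 CPM in untreated cells; the T cell markers were at 0 in treated cells. Cells are tied to a treatment only by the word in the cell name. CDKN1A, a gene that such inhibitors are known to induce, had 39.4 CPM in the library labelled treated and 97.9 CPM in the one labelled untreated. Directions below follow the labels. With 1 library each, no difference between treatments has a replicate check, and the 95% exact intervals cover counting error only.

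The first comparison asked how the histone genes as a family differed between treated and untreated cells. Clustered histone transcripts took 5753 CPM in treated cells and 2480 CPM in untreated cells, a ratio of 2.32 (2.30 to 2.34). HIST1H4C, an H4 gene, carried most of this, with 83.9% of all HIST UMIs in treated cells and 76.1% in untreated cells. It stood at 4825 CPM in treated cells and 1887 CPM in untreated cells. Without it, the other HIST genes together were at 928 CPM in treated cells and 593 CPM in untreated cells, a ratio of 1.56 (1.54 to 1.59). Of the 50 members, 22 were at least 1.5-fold higher in treated cells, against 4.73% of 15570 genes with at least 20 UMIs, and 5 were at least 1.5-fold lower, against 18.4%. The interval left out 1 for 19 of the 22 and all 5. The members' median log2 ratio was 0.42, beside -0.04 over all genes measured.

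The class totals differed in direction. H1 transcripts summed to 456 CPM in treated cells and 244 CPM in untreated cells, and H2A transcripts to 271 CPM in treated cells and 123 CPM in untreated cells. H3 transcripts summed to 41.9 CPM in treated cells and 28.5 CPM in untreated cells. The H2B total was lower, with 150 CPM in treated cells and 191 CPM in untreated cells. The ratios were 1.87 for H1, 2.20 for H2A, 1.47 for H3 and 0.784 (0.761 to 0.807) for H2B. Most H2B UMIs came from HIST1H2BK, and the other H2B genes together had 33.5 CPM in treated cells and 36.1 CPM in untreated cells, a ratio of 0.928 (0.869 to 0.991). Counted as single genes, 9 of 15 H2B members lay above 1, with a median log2 ratio of 0.32. The H4 total was HIST1H4C for the most part, and the other H4 genes together had 9.89 CPM in treated cells and 7.70 CPM in untreated cells, a ratio of 1.28 (1.12 to 1.47).

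**Figure D1:**
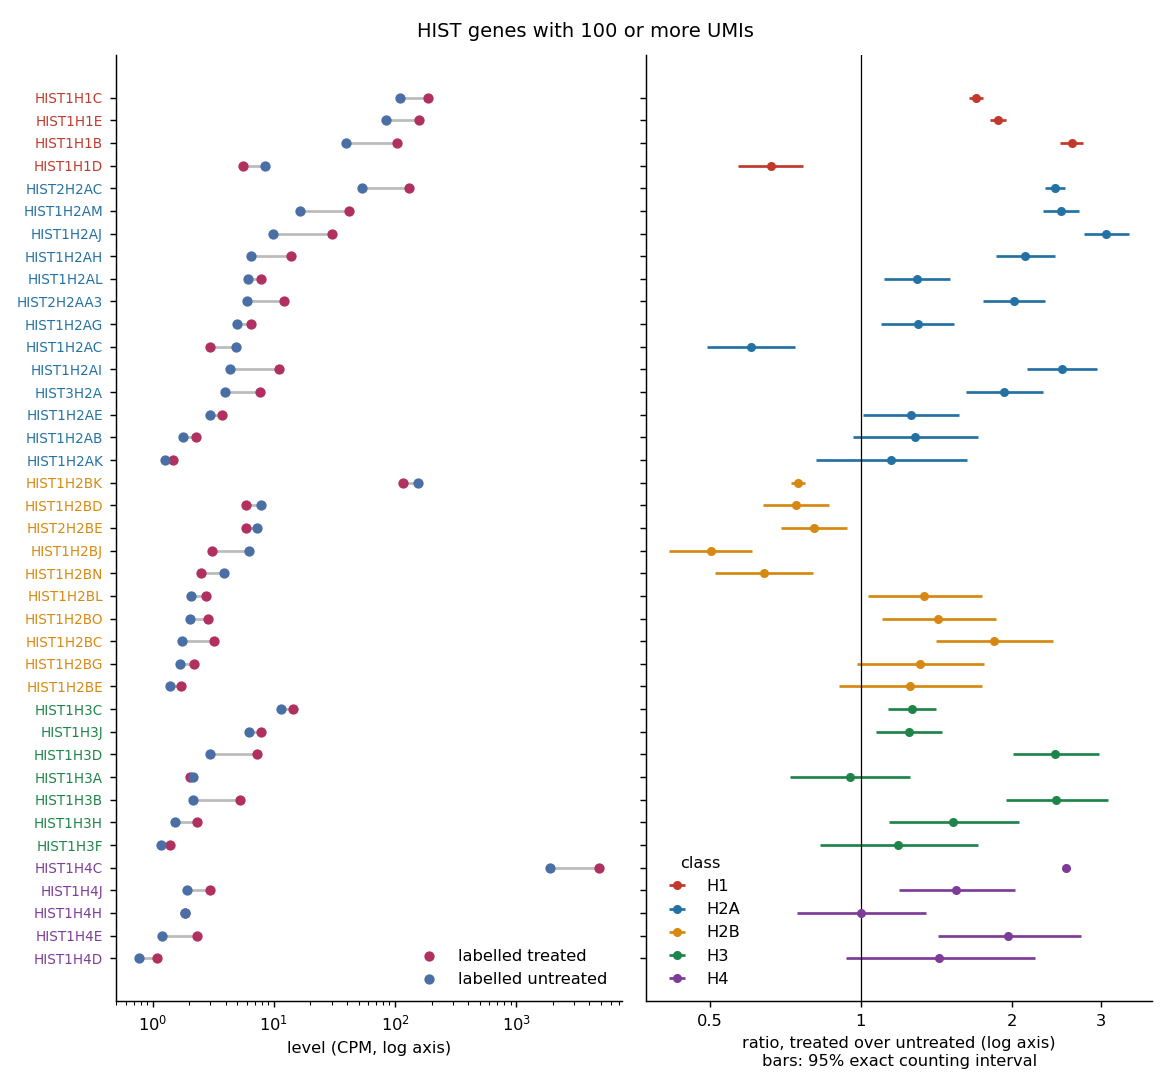
Left, level in CPM (log axis) of each HIST gene with 100 or more UMIs in the libraries labelled treated and untreated. Right, the ratio of treated over untreated (log axis) with its 95% exact counting interval; gene names are coloured by class. HIST1H2AJ has a ratio of 3.08 and HIST1H2BJ one of 0.502, and the most counted H2B gene, HIST1H2BK, lies left of 1.

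Of the linker histones, HIST1H1B had 103 CPM in treated cells and 39.3 CPM in untreated cells, the highest ratio of its class at 2.63 (2.49 to 2.77). HIST1H1E had 159 CPM in treated cells and 84.8 CPM in untreated cells. HIST1H1C had 188 CPM in treated cells and 111 CPM in untreated cells. HIST1H1D ran the other way, with 337 UMIs in treated cells and 386 UMIs in untreated cells, a ratio of 0.661 (0.570 to 0.767). So 3 of the 4 H1 genes were higher in the treated library and 1 was lower.

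Among the H2A genes, 7 of 14 were at least 1.5-fold higher and 1 lower. Over all genes these shares were 4.73% and 18.4%, which also apply to the counts of the other classes. HIST1H2AJ led with 30.1 CPM in treated cells and 9.79 CPM in untreated cells, a ratio of 3.08 (2.77 to 3.42). HIST2H2AC had 129 CPM in treated cells and 53.2 CPM in untreated cells. HIST1H2AM had 41.4 CPM in treated cells and 16.5 CPM in untreated cells; its annotation overlaps HIST1H3J, and the table does not state how shared reads were counted. Ratios were also above 2 for HIST1H2AI at 2.51 (2.14 to 2.95), HIST1H2AH at 2.12 and HIST2H2AA3 at 2.02. HIST2H2AA3 has the same coding sequence as HIST2H2AA4, for which no UMIs were counted in either library. The lowest H2A gene was HIST1H2AC, with 2.98 CPM in treated cells and 4.92 CPM in untreated cells, a ratio of 0.605 (0.494 to 0.740).

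Of the 15 H2B genes, 4 passed 1.5-fold upward and 2 downward. HIST1H2BK, the most counted of them, had 116 CPM in treated cells and 155 CPM in untreated cells, a ratio of 0.750 (0.726 to 0.775). HIST1H2BJ was at 3.11 CPM in treated cells and 6.19 CPM in untreated cells, the lowest ratio of any member at 0.502 (0.415 to 0.606). HIST1H2BD had 5.85 CPM in treated cells and 7.88 CPM in untreated cells. HIST2H2BE had 5.92 CPM in treated cells and 7.33 CPM in untreated cells. The intervals of these 4 genes all lay below 1. HIST1H2BC was the highest with 100 or more UMIs, at 3.22 CPM in treated cells and 1.76 CPM in untreated cells. HIST1H2BN, with a ratio of 0.642, was the other lower member, and its annotation overlaps HIST1H2AK and HIST1H2AL.

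No H3 gene was at least 1.5-fold lower, and 5 of 9 were higher. HIST1H3B had the highest H3 ratio at 2.44 (1.94 to 3.10), with 5.25 CPM in treated cells and 2.15 CPM in untreated cells. HIST1H3A was the lowest at 2.04 CPM in treated cells and 2.15 CPM in untreated cells, with an interval of 0.723 to 1.25. HIST1H3C, the most counted, had 14.4 CPM in treated cells and 11.4 CPM in untreated cells. Of the 8 H4 genes, 3 were at least 1.5-fold higher, with HIST1H4C at 2.56 (2.54 to 2.58), and HIST1H4A, on 81 UMIs in all, was lower at 0.576. HIST1H4H was level at 1.85 CPM in treated cells and 1.84 CPM in untreated cells.

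The second question was how HIST1H4C was spread over cells. After thinning, it was high in a minority of cells and low in the others. In treated cells 17.9% (16.9% to 18.9%) had 50 or more UMIs and 15.8% had 20 to 49, against 4.19% (3.58% to 4.87%) and 8.63% of untreated cells. Cells with 5 to 19 UMIs made up 13.8% of treated and 10.6% of untreated cells, and cells with 1 to 4 made up 45.6% of treated and 53.3% of untreated cells. None was found in 6.87% of treated cells and 23.3% of untreated cells. Without thinning, 30.5% of treated and 12.3% of untreated cells had 50 or more. The richest 10% of cells held 42.2% of HIST1H4C UMIs in treated cells and 70.0% in untreated cells. Free RNA gives low counts in cells that do not express a gene, and with 1 cell line there was no cell type without HIST1H4C in which to measure it.

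**Figure D2:**
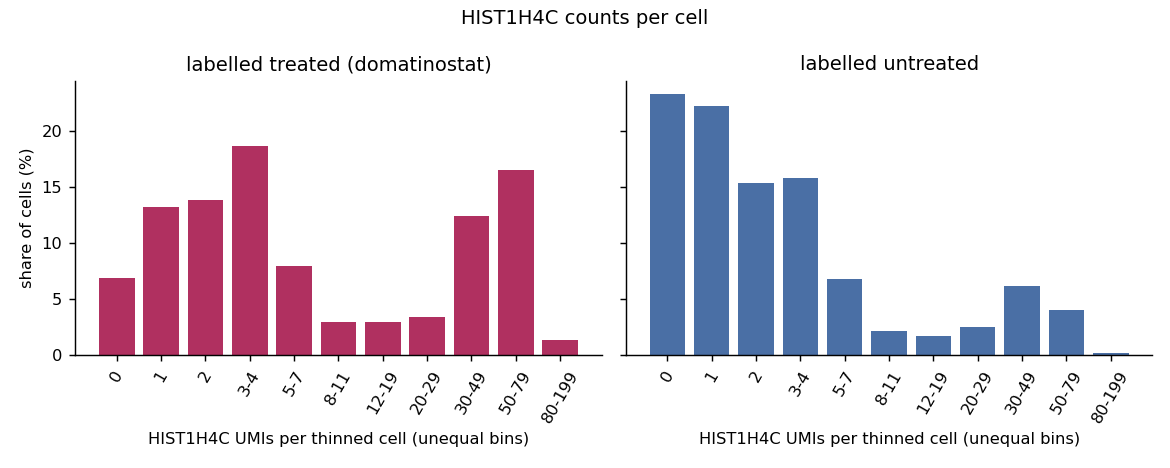
Share of cells (percent) by HIST1H4C UMIs per cell after thinning to 4351 UMIs, in bins of unequal width, for the libraries labelled treated (left) and untreated (right). Cells with 50 or more UMIs are 17.9% of treated and 4.19% of untreated cells, and cells with 0 are 6.87% of treated and 23.3% of untreated cells.

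To see which members accompany HIST1H4C, cells of each library were put in 3 groups by their thinned HIST1H4C count, with equal counts kept together. Each member's CPM in the high group was divided by that in the low group. The high and low groups held 2013 and 2038 of 6012 treated cells, and 1526 and 1769 of 3892 untreated cells. The untreated groups were thus unequal in size. The high group had a median of 6 thinned HIST1H4C UMIs in untreated cells, beside 51 in treated cells. The high group began at 21 UMIs in treated cells and at 3 in untreated cells, and the low group ended at 2 and at 1, so the sizes of these ratios are not comparable between libraries. A member with a ratio of at least 2 in untreated cells was called a follower and one under 1.5 a non-follower. This gave 24 followers, 3 between, 8 non-followers and 14 members with under 50 UMIs in these cells, HIST1H4C being the sorting gene. Over all genes, 0.663% reached 2 in untreated cells and 97% lay under 1.5. In treated cells 30 members reached 2, against 2.83% of genes, and 3 lay under 1.5, against 92.2%. Of the 24 followers, 21 reached 2 in treated cells as well and 3 lay between.

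All 4 H1 genes and 11 of 14 H2A genes were followers, as were 5 of 15 H2B and 4 of 9 H3 genes. Apart from HIST1H4C none of the H4 genes was, since 2 were non-followers and 5 were too sparse. HIST1H1B followed most steeply, with 251 CPM in high and 5.81 CPM in low cells of the treated library, and 92.8 and 2.15 CPM in those of the untreated library. HIST1H1C had 423 CPM in high and 30.2 CPM in low treated cells, and 236 and 20.8 CPM in untreated cells. HIST2H2AC had ratios of 10.1 in treated and 4.74 in untreated cells. Pearson correlations with HIST1H4C over single cells used log thinned counts, at 4351 UMIs in each cell. They were 0.67 in 6012 treated and 0.64 in 3892 untreated cells for HIST1H1C. They were 0.61 and 0.57 for HIST1H1B, and 0.10 and 0.23 for HIST1H2BK.

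HIST1H2BK, HIST1H2BD, HIST1H2BJ, HIST2H2BE and HIST1H1C had been proposed as genes that do not follow HIST1H4C, and only HIST2H2BE met that description. HIST2H2BE had 4.07 CPM in high and 7.17 CPM in low treated cells, a ratio of 0.568 (0.427 to 0.751), and 7.61 and 7.05 CPM in untreated cells, a ratio of 1.08 (0.848 to 1.38). HIST1H1C was among the steepest followers. The other 3 followed weakly: HIST1H2BK had ratios of 1.502 in treated and 2.33 in untreated cells, HIST1H2BD 2.11 and 2.99, and HIST1H2BJ 1.82 and 2.56. The other non-followers were HIST1H3J, HIST1H2BN, HIST1H4J, HIST1H2BO, HIST1H4H, HIST1H2BE and HIST1H2AK, and of these HIST1H2BN and HIST1H4J stayed under 1.5 in treated cells. The name non-follower holds for this sorting only. Several of these genes were higher in cells rich in HIST1H4C when cells were grouped otherwise, as given below. HIST1H4J, which shares its coding sequence with HIST1H4K, had 1.99 CPM in high and 4.21 CPM in low treated cells and 1.88 and 1.95 CPM in untreated cells.

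**Figure D3:**
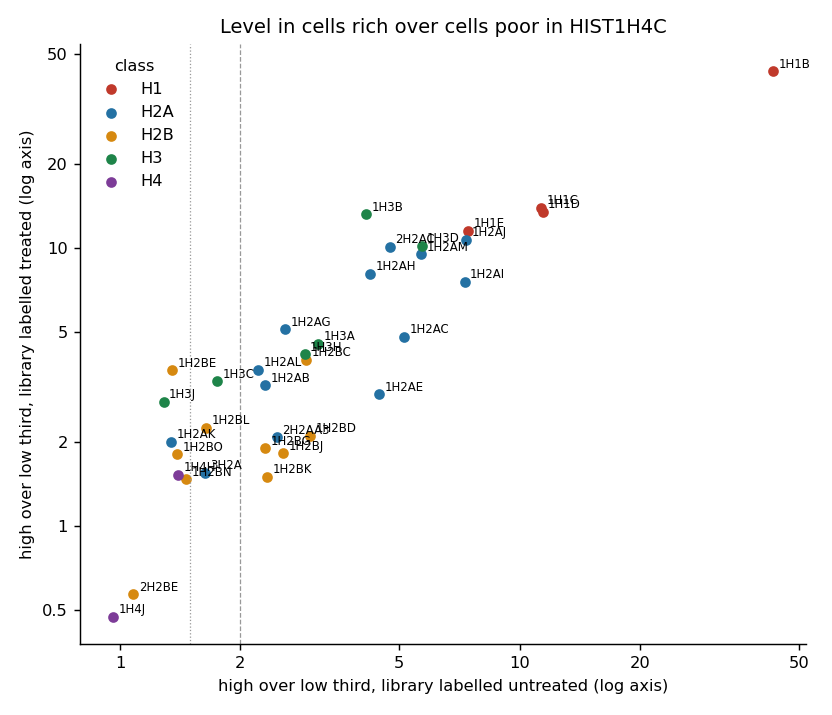
Level in HIST1H4C-high over HIST1H4C-low cells for the 35 members with 50 or more UMIs in these untreated cells, other than HIST1H4C, in the library labelled treated (vertical, log axis) against untreated (horizontal, log axis), coloured by class and named without the prefix HIST. The dashed and dotted lines mark 2 and 1.5 in untreated cells; HIST1H1B stands far up at 43.3 and 43.2, and HIST2H2BE lies at 0.568 and 1.08.

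The 24 followers had a median log2 ratio of treated over untreated of 0.68, with 13 at least 1.5-fold higher and 3 lower. The 8 non-followers had a median of 0.26, with 1 higher and 1 lower. Over all genes measured, 4.73% were at least 1.5-fold higher and 18.4% lower. Summed, followers stood at 864 CPM in treated cells and 542 CPM in untreated cells, and non-followers at 27.1 CPM in treated cells and 25.9 CPM in untreated cells, a ratio of 1.05 (0.970 to 1.13). Untreated UMIs set the split and also enter these ratios.

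Sorting by cycle genes other than histone genes separated the members further. Cells were ranked by the summed thinned UMIs of 40 measured S phase genes and of 54 measured G2/M genes. Of the members measured other than HIST1H4C, 11 of 39 were at least 2-fold higher in S-high than in S-low treated cells, against 4.18% of genes, and 5 of 34 in untreated cells, against 7.14%. By the G2/M list 32 of 38 reached 2-fold in treated cells, against 5.06% of genes, and 26 of 34 in untreated cells, against 4.62%. These sortings were not independent. S-low cells had medians of 50 G2/M list UMIs in treated and 49 in untreated cells, against 30 and 16 in S-high cells. An S-high over S-low ratio is thus in part a comparison with cells high on the G2/M list. HIST1H4C itself was 2.74-fold higher in S-high than in S-low treated cells and 2.67-fold in untreated cells, while for the G2/M list the ratios were 13.3 in treated and 9.51 in untreated cells. HIST1H1B was higher with both lists, with ratios of 3.58 in treated and 3.52 in untreated cells for S, and of 22.7 in treated and 17.9 in untreated cells for G2/M. HIST1H3C ran opposite ways, with S-high over S-low ratios of 0.745 in treated and 0.264 (0.207 to 0.334) in untreated cells and G2/M ratios of 4.34 in treated and 4.21 (3.24 to 5.54) in untreated cells. HIST2H2BE was lower in G2/M-high cells, with ratios of 0.380 in treated and 0.427 in untreated cells. The G2/M-high cells also had more UMIs, with medians of 10864 in treated and 13904 in untreated cells, against 7711 in treated and 9764 in untreated G2/M-low cells.

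Chosen after these values were seen, 3 kinds of cells were then set apart. HIST1H4C-rich cells had 20 or more thinned UMIs and made up 33.7% (32.5% to 34.9%) of treated and 12.8% (11.8% to 13.9%) of untreated cells, a ratio of 2.63. HIST1H4C-poor cells had under 5. Those in the upper G2/M group of their library made up 8.33% of treated and 17.7% of untreated cells. The remaining poor cells made up 44.2% and 58.8%. The upper G2/M group began at 49 UMIs of the G2/M list in treated and at 31 in untreated cells. The shares of these poor cells are therefore not comparable between libraries. The rich cells scored high on both cycle lists, with medians of 22 S and 52 G2/M UMIs in treated and 21 and 47 in untreated cells. The poor, G2/M-high cells had medians of 8 S and 82 G2/M UMIs in treated and 7 and 74 in untreated cells.

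In rich cells nearly every member was higher than in the remaining poor cells. In treated cells 33 of 39 measured members were at least 2-fold higher, against 3.82% of genes, and in untreated cells 29 of 33, against 2.95%. HIST2H2BE was lower instead, with 4.05 CPM in rich and 8.46 CPM in remaining poor treated cells and 5.73 and 9.07 CPM in untreated cells. Poor, G2/M-high cells held raised levels of some members but not others. There 17 of 39 members were at least 2-fold higher than in the remaining poor cells in the treated library, against 5.67% of genes, and 16 of 33 in the untreated library, against 6.29%. In treated cells they were 6 of 7 H3, 6 of 11 H2B, 3 of 13 H2A and 2 of 4 H4 genes. In untreated cells they were 5 of 6 H3, 5 of 9 H2B, 6 of 12 H2A and 0 of 2 H4 genes. None of the 4 H1 genes was among them in either library. In treated cells HIST1H1C and HIST1H1B still lay above 1, with ratios of 1.71 (1.48 to 1.97) and 1.57 (1.12 to 2.18). In untreated cells their ratios were 0.753 (0.650 to 0.870) and 0.979 (0.655 to 1.43). HIST1H1D and HIST1H1E lay below 1 in both libraries. HIST1H3J had 11.2 CPM in poor, G2/M-high and 2.30 CPM in remaining poor treated cells, and 12.7 and 2.22 CPM in untreated cells. HIST1H1E had 16.8 and 35.5 CPM in these treated cells and 10.7 and 38.6 CPM in untreated cells.

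**Figure D4:**
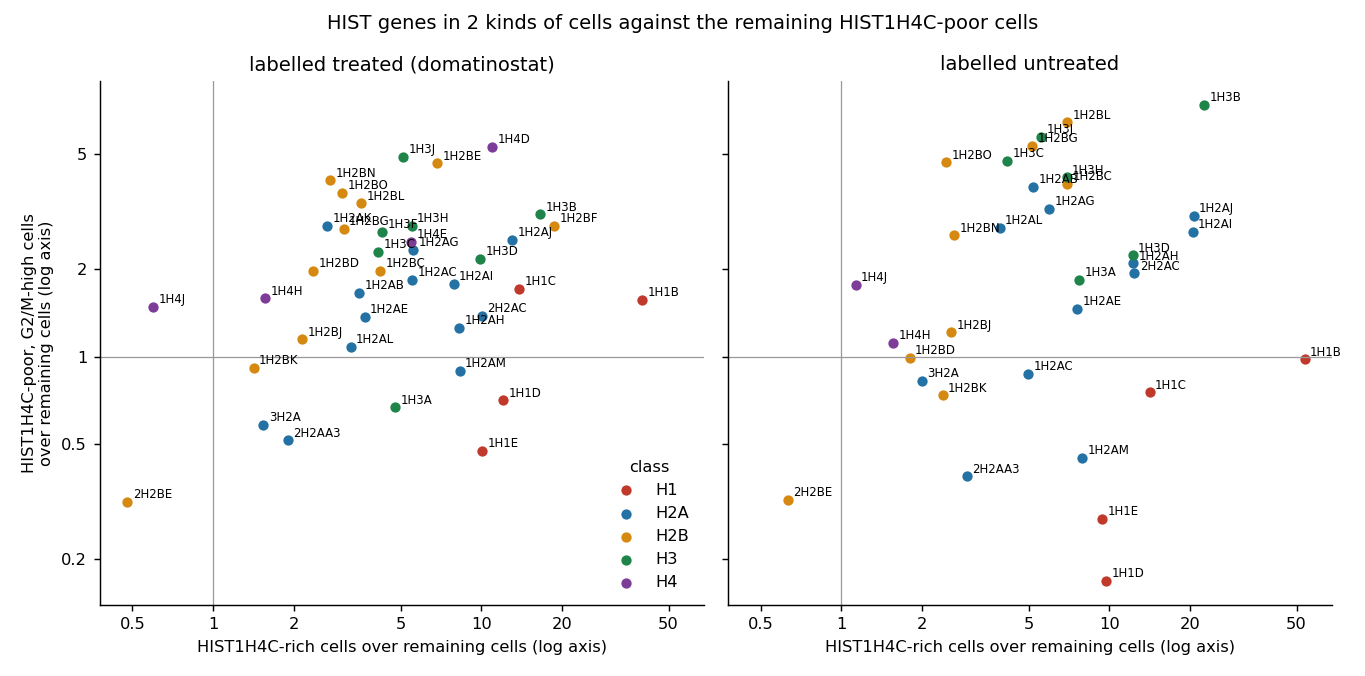
For each member with 50 or more UMIs in these cells, the ratio of its level in HIST1H4C-rich cells (horizontal) and in HIST1H4C-poor, G2/M-high cells (vertical) to that in the remaining HIST1H4C-poor cells, on log axes, in the libraries labelled treated (left) and untreated (right), coloured by class. HIST1H1B lies farthest right, with 1.57 in treated and 0.979 in untreated cells on the vertical axis, H3 genes lie mostly in the upper part, and HIST2H2BE is below 1 on both axes.

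Within rich cells the difference between treated and untreated cells was smaller for most of the members with 1000 or more UMIs, HIST1H2BK being an exception. The rich cells of the libraries were not alike in HIST1H4C, since 53.1% of those in the treated library and 32.7% of those in the untreated library had 50 or more thinned UMIs. HIST1H4C had 11529 CPM in rich treated cells and 9848 CPM in rich untreated cells, a ratio of 1.17 (1.16 to 1.18) beside 2.56 over all cells. Its count defined the rich cells, so this ratio is a description of the state and could not range freely. HIST1H1E had 357 CPM in rich treated cells and 364 CPM in rich untreated cells. HIST1H1C had 421 CPM in rich treated cells and 490 CPM in rich untreated cells. HIST1H1B had a ratio of 1.12 (1.06 to 1.19). Followers together had a ratio of 0.935 (0.916 to 0.954) in rich cells and 1.00 (0.972 to 1.04) in poor cells. HIST1H2BK weighed on these sums, and without it the followers had ratios of 1.02 (1.00 to 1.05) in rich and 1.15 (1.10 to 1.20) in poor cells, and 1.93 (1.90 to 1.97) over all cells. Of 40 members with at least 50 UMIs in rich cells, 5 were at least 1.5-fold higher in treated cells, against 6.27% of genes, and 7 lower, against 10.3%. In poor cells 7 of 36 were higher, against 3.06%, and 4 lower, against 13.6%. The minimum was set on both libraries together, with 2025 rich treated and 499 rich untreated cells. Of the 5 members higher in rich cells, HIST1H2AK (0.772 to 3.70) and HIST1H2BE (0.914 to 3.46) had intervals that held 1. HIST1H2BF passed the minimum with 55 UMIs in rich treated and 6 in rich untreated cells, and HIST1H2AK with 47 and 9.

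Several H2A genes had a higher level in treated cells of either kind. HIST1H2AJ had 65.7 CPM in rich treated cells and 41.4 CPM in rich untreated cells, and 6.52 CPM in poor treated cells and 3.16 CPM in poor untreated cells. HIST2H2AC had ratios of 1.32 (1.25 to 1.40) in rich and 1.38 (1.25 to 1.53) in poor cells. Several members that were lower in the treated library over all cells were lower in both kinds of cells as well. HIST1H2BK had 142 CPM in rich treated cells and 305 CPM in rich untreated cells, a ratio of 0.464 (0.438 to 0.491), and 98.3 CPM in poor treated cells and 118 CPM in poor untreated cells. HIST1H1D had 13.01 CPM in rich treated cells and 37.4 CPM in rich untreated cells, a ratio of 0.348 (0.293 to 0.415), and a ratio of 0.345 in poor cells. HIST1H2BJ had ratios of 0.416 in rich and 0.482 in poor cells, and HIST1H2AC 0.403 and 0.438. The H2B genes other than HIST1H2BK together had 46.4 CPM in rich treated cells and 54.3 CPM in rich untreated cells, and of 11 H2B genes measured there 3 were at least 1.5-fold higher and 3 lower. The 3 higher were HIST1H2BF, HIST1H2BO and HIST1H2BE, with only 6, 15 and 12 UMIs in rich untreated cells. Rich treated cells had a median of 10481 UMIs and rich untreated cells 13462, and the part of depth in these differences was not tested.

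**Figure D5:**
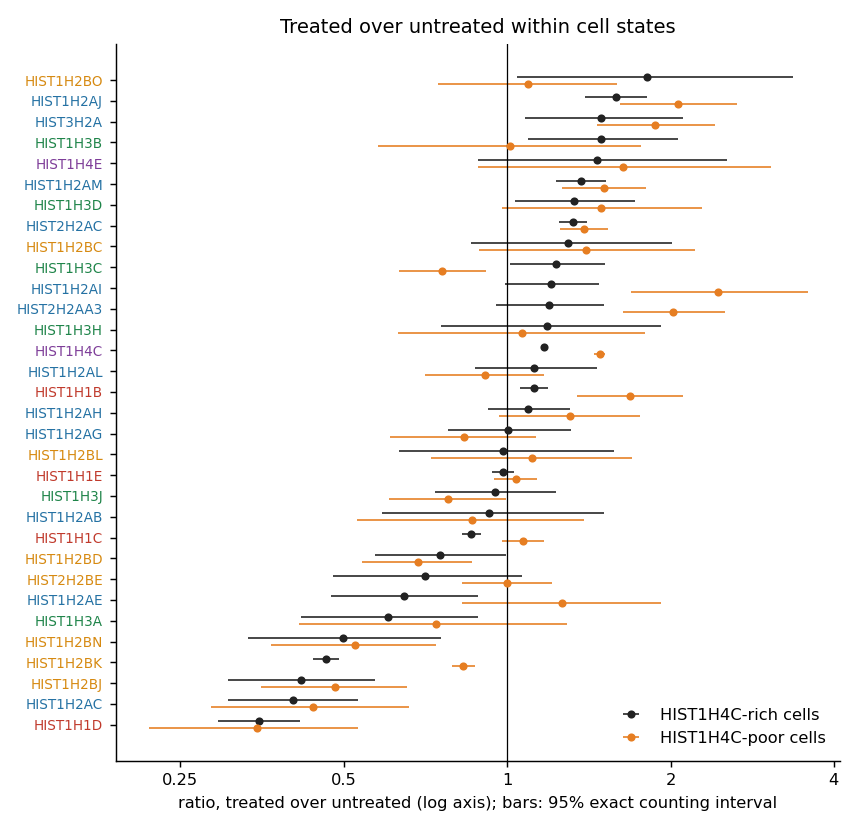
Ratio of treated over untreated (log axis) with its 95% exact counting interval for the members with 100 or more UMIs in HIST1H4C-rich cells, within rich cells (black) and poor cells (orange), ordered by the ratio in rich cells. HIST1H4C lies at 1.17 in rich cells, while HIST1H2BK, HIST1H2BJ, HIST1H2AC and HIST1H1D lie at 0.464 or lower.

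Beyond the histone clusters, the genes most like HIST1H4C were ranked by the same high over low ratio in untreated cells among 5061 genes with at least 1000 UMIs there. The 6 highest were ARHGAP11B at 6.14 in treated and 4.37 in untreated cells, PIF1 at 4.49 and 4.00, H2AFX at 3.83 and 3.68, MXD3 at 7.31 and 3.33, CDK1 at 3.45 and 2.71, and RRM2 at 4.59 and 2.53. H2AFX encodes the H2A variant H2AX, RRM2 a subunit of ribonucleotide reductase, and CDK1 the mitotic kinase. PIF1 was not confined to HIST1H4C-rich cells. It had 73.9 CPM in rich and 99.5 CPM in poor, G2/M-high treated cells, and 58.5 and 49.6 CPM in untreated cells. S-high over S-low ratios in untreated cells were 0.0806 for PIF1, 0.684 for MXD3, 0.768 for ARHGAP11B and 0.770 for CDK1. They were 1.58 for H2AFX and 4.01 for RRM2, beside 2.67 for HIST1H4C. The S-low cells in these ratios scored higher on the G2/M list than the S-high cells.

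Genes that act on histone transcripts or carry histones were read from lists. Beside them, 4.73% of all genes were at least 1.5-fold higher in treated cells and 18.4% lower. Many listed genes had 1000 or more UMIs over both libraries. Among all 7734 genes with that many, only 147 were at least 1.5-fold higher and 345 lower. Of 40 measured genes of histone transcript control, 1 was at least 1.5-fold higher in treated cells, CRAMP1L at 1.76, and 1 lower, CSTF2T at 0.527, with a median log2 ratio of 0.09. SLBP, which binds the stem-loop, had 166 CPM in treated cells and 186 CPM in untreated cells. NPAT, the activator of clustered histone genes, had a ratio of 1.12 (1.03 to 1.22). Of 27 histone chaperone genes, 2 were higher, TONSL at 1.53 and IPO4 just at the threshold, and 0 lower; the lowest was NPM1 at 0.828. NASP, a carrier of H3 and H4, had a ratio of 1.16, and CHAF1A and CHAF1B of the replication-coupled assembly factor had 0.994 and 1.04, and ASF1B 0.843. None of 11 replacement histone genes, which are expressed outside S phase as well, reached 1.5-fold either way. H2AFX had 95.2 CPM in treated cells and 68.0 CPM in untreated cells, and H1F0, a replacement linker histone, had 167 CPM in treated cells and 214 CPM in untreated cells. H1F0 is, like CDKN1A, known to be induced by histone deacetylase inhibitors, and both were lower in the library labelled treated. Whether the words in the cell names are right was not tested.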

How the data were processed

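Single-cell 3′ libraries were processed with Cell Ranger and Seurat on the genome build hg19, per the submitters' processing notes; their versions, the annotation and any filters are not given in the sources used here. For both samples the authors deposited a single table on a natural log scale: 1 was added to each gene's share of its cell, scaled to 10000, before taking the logarithm. UMI counts were recovered per cell from the smallest value above 0, and 100% of values were whole multiples within 1e-06. Cells were assigned by the treatment word in their names.

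CPM are UMIs summed over cells per 1000000. Ratios have 95% Clopper-Pearson intervals; no filter on cells or doublet caller was added. Members, lists and tests were chosen with earlier results of these data known. Named with values were members with 1000 or more UMIs, 5 members given with the choice of genes, the highest and lowest ratio per class with 100 or more UMIs, 6 genes most like HIST1H4C and chosen genes of the lists. The others named (HIST1H2BN, HIST1H4A, HIST1H3J, HIST1H4J, HIST1H2BG, HIST1H2BO, HIST1H2BE, HIST1H2AK, HIST1H2AI, HIST1H2BF, HIST1H4D, HIST1H3F, CDKN1A, H2AFX and H1F0 as replacement histones) were named once their values were known. The cell states were also chosen after seeing the data. Alternatives changed the scaling, cell weights, cells used, pseudocount, thinning and the sorting of cells. The ratios and the split into followers were tested on simulated data, where 94% of the intervals held the true ratio. That test does not show that the calls hold in these cells, where they varied with the sorting. Python 3.11.15, numpy 2.4.6, scipy 1.17.1 and matplotlib 3.10.9 were used. Promoters and transcripts are on GRCh38, and no coordinates were taken from the deposited table.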

Additional observations from a re-analysis of the deposited data

How the results depend on the processing

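No paired analysis was possible because each group had 1 library, and for the same reason no replicate could be left out. Under the alternatives the number of members at least 1.5-fold higher lay between 7 and 26, and the number of followers between 15 and 31; no follower became a non-follower under any alternative sorting, though up to 3 non-followers became followers. Causes of the changes below were not tested, except that a pseudocount shrinks the ratios of low genes by construction.

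With equal weight for each cell, the non-follower median log2 ratio was 0.11, and the ratios of H2B, H4 and HIST1H4C were 0.732, 2.59 and 2.60. Without the 5% of cells with the most UMIs, 3 members were lower, and H4 and HIST1H4C had 2.51 and 2.52. With thinned cells the non-follower median was 0.0997, and the ratios were 1.82 for H1, 0.749 for H2B, 1.36 for H3, 2.58 for H4 and 2.59 for HIST1H4C. With a pseudocount of 0.1 per 10000, 7 members were higher and 0 lower, the medians were 0.0719 for all members, 0.16 for followers and 0.0336 for non-followers, and H2A and H3 had ratios of 2.11 and 1.35.

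In the low HIST1H4C cells alone, the medians were 0.12 for members, 0.42 for followers and -0.0536 for non-followers, which changed sign. There the ratios were 1.43 for H1, 1.45 for H2A, 0.965 for H2B, 0.815 for H3 (also turned), 1.82 for H4 and 1.84 for HIST1H4C. The limit was at most 2 thinned HIST1H4C UMIs in treated and at most 1 in untreated cells. This unlike limit by itself favours higher HIST1H4C and H4 ratios. In the G2/M-high cells the medians were 0.27 for members, 0.36 for followers and 0.0948 for non-followers. The ratios there were 1.44 for H1, 1.68 for H2A, 0.742 for H2B, 1.24 for H3, 1.88 for H4 and 1.88 for HIST1H4C. These cells also had unlike limits, of at least 49 G2/M list UMIs in treated and at least 31 in untreated cells.

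Sorting cells into 4 groups left 5 non-followers. Thinned levels gave 15 followers and 3 non-followers. Sorting by the other HIST genes left 5 non-followers, with medians of 0.42 for followers and 0.00115 for non-followers. Thinning to 2175 UMIs gave a follower median of 0.82. A split set in treated cells left 3 non-followers, with medians of 0.56 for followers and -0.31 for non-followers, which changed sign. Rich against poor cells, an alternative chosen after seeing the data, left 3 non-followers with a median of 0.51. The call of a gene as a non-follower therefore depends on the sorting. By the 3 groups of cells, HIST1H2BN, HIST1H4J and HIST2H2BE were under 1.5 in both libraries. In rich over remaining poor cells, HIST1H2BN had ratios of 2.74 in treated and 2.64 in untreated cells. The ratios were 0.597 and 1.13 for HIST1H4J, and 0.478 and 0.631 for HIST2H2BE. For the other non-followers they were 5.11 and 5.58 for HIST1H3J, 3.03 and 2.46 for HIST1H2BO, and 1.56 and 1.56 for HIST1H4H. On only 47 and 49 UMIs in untreated cells, HIST1H2BE had 6.84 and 6.18, and HIST1H2AK had 2.67 and 0.901. Members with few UMIs have wide intervals, and 14 could not be placed at this depth.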
